A study of Mus musculus with 6 samples.

Results

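Hepatic stellate cells were followed through 10 of their marker genes (Acta2, Des, Lrat, Rgs5, Pdgfra, Pdgfrb, Reln, Dcn, Lum and Tagln) in whole livers of mice given carbon tetrachloride (CCl4). The 10 genes were chosen by name, as markers of this cell type, with earlier results of these data known. They make up 10 of the 24346 genes in the deposited table. All 10 had a mean of at least 0.5 FPKM (fragments per kilobase of transcript over the mapped total, a level scaled to transcript length) and so were among the 11956 genes tested. The series holds 6 RNA-seq libraries of liver tissue from male C57/BL6 mice aged 8 weeks, each killed 24 h after an intraperitoneal dose of 0.6 μl CCl4 per g body weight. Its 3 libraries labelled wt come from control mice with a floxed Med23 gene (med23 f/f in the study's notation), and its 3 libraries labelled med23 ko come from mice that also carry Albumin-cre (med23Δli). Albumin-cre acts in hepatocytes, so the stellate cells of the med23 ko livers keep their own Med23. Both groups received CCl4 and no untreated liver is among the samples, so the change brought about by CCl4 itself cannot be read from these values. The labels do not state that each library is a separate mouse, and p-values measure only the spread between these 6 libraries.

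Stellate cells lie in the space between hepatocytes and the sinusoidal endothelium. In the quiescent state they store vitamin A as retinyl esters in lipid droplets. After injury they can lose this store, proliferate in response to platelet-derived growth factor (PDGF), respond to transforming growth factor beta (TGF-beta), and become contractile myofibroblasts that make collagen. Activation in the mouse liver takes days, and 24 h after a single dose of CCl4 lies near its start. Lrat, Reln and Rgs5 were taken here as markers of the quiescent cell, Acta2, Tagln and Lum as markers of the activated cell, and Des, Pdgfra, Pdgfrb and Dcn as genes that stellate cells keep in both states and share in part with fibroblasts.

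Among the markers, the study's qRT-PCR assays of liver covered Acta2, Des and Pdgfrb. The primers of Acta2 and Des are given here, since they show which stretch of each transcript such an assay reads. The table's FPKM values are instead summed over the whole gene. All primers were 20 bases long, are written 5′ to 3′, and were located on mm10 by an exact match to the GENCODE M21 transcripts.
Acta2-F: actgggacgacatggaaaag
Acta2-R: gttcagtggtgcctctgtca
Desmin-F: agctcaagtcatcgcccttc
Desmin-R: gcagatcccaacaccctctc
The Acta2 gene lies on the minus strand at chr19:34241090-34255590. Its forward primer matched coding sequence in exon 3 of 9 (chr19:34251730-34251749) and its reverse primer coding sequence in exon 4 of 9 (chr19:34248454-34248473), which gives a product of 101 bases across a splice junction. Des lies on the plus strand at chr1:75360329-75368579. Both of its primers matched the 3′ UTR in exon 9 of 9 (chr1:75367289-75367308 and chr1:75367350-75367369), in 1 of 3 annotated transcripts, with a product of 81 bases. Each primer matched only its own gene without a mismatch. Acta2-F came within 1 mismatch of Acta1, Actb and Actg1, which encode closely related actins, whereas Acta2-R had at least 3 mismatches to each of the other 5 actins searched.

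Of the 10 stellate markers, 1 fell in the med23 ko libraries (Des, desmin) and none rose, and no marker changed over 2-fold. Across all genes tested, 9.48% fell (3.45% over 2-fold) and 11.6% rose (4.45% over 2-fold) at an adjusted p under 0.05 (limma on log2(FPKM + 0.1), Benjamini-Hochberg adjustment over 11956 genes), so that 1 of 10 is close to the share among genes at large. The log2 difference, med23 ko minus wt, was below 0 for 7 markers, beside 47.8% of all genes tested, and above 0 for 3, with a median of −0.33 and a range of −0.58 to 0.47. The median over all genes tested was 0.024. Before adjustment, Des, Pdgfrb and Reln had p under 0.05, that is 3 of 10, beside 37.6% of all genes tested. In 3 markers, Des, Pdgfrb and Tagln, each med23 ko library lay below each wt library, beside 20.4% of all genes tested that separated in this direction. The 95% interval of the difference stayed within 2-fold either way for 7 markers, while those of Lrat, Pdgfrb and Lum reached beyond it.

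**Figure D1:**
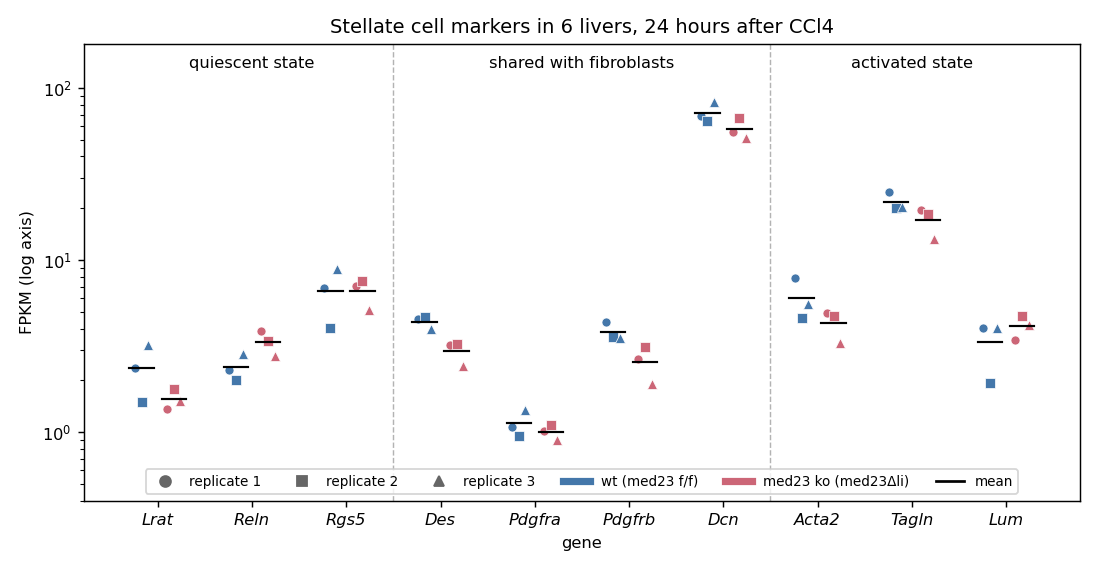
FPKM (log axis) of the 10 stellate markers in the 3 wt (blue) and 3 med23 ko (red) livers, 24 h after CCl4; each symbol is 1 library, its shape gives the replicate number, which pairs nothing between groups, and black bars are group means. Des, Pdgfrb and Tagln are the markers whose groups do not overlap, and Dcn is the most abundant marker in both groups.

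**Figure D2:**
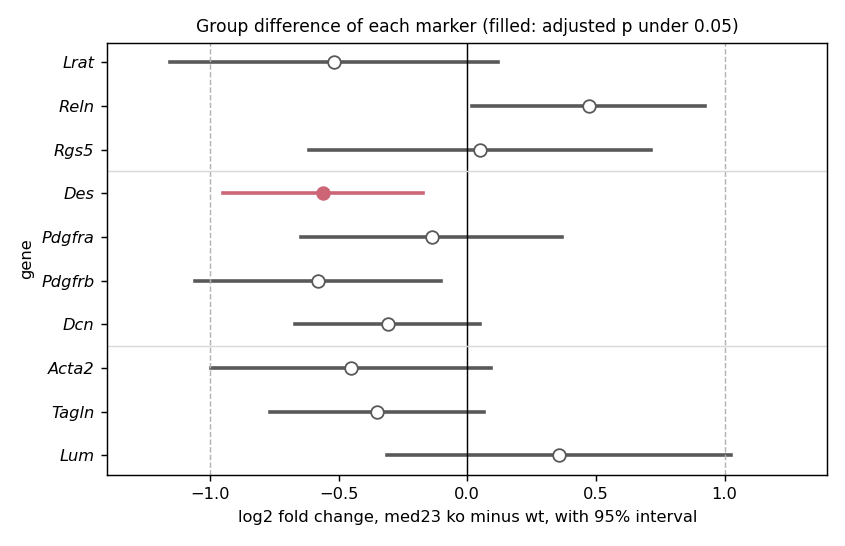
Log2 difference of each marker, med23 ko minus wt, on the log2(FPKM + 0.1) scale, with its 95% interval from limma; dashed lines mark a 2-fold change. Des (filled) is the marker that passed an adjusted p of 0.05, and the estimates of Reln, Rgs5 and Lum lie above 0.

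Among the quiescent markers, Lrat encodes lecithin retinol acyltransferase, the enzyme that esterifies retinol for storage. Its levels were 2.36, 1.5 and 3.20 FPKM in wt replicates 1 to 3 and 1.36, 1.78 and 1.52 FPKM in med23 ko replicates 1 to 3. The groups overlapped, since wt replicate 2 lay below 2 of the 3 med23 ko libraries, while wt replicate 3 was the highest of all. The log2 difference was −0.52 (SE 0.28, adjusted p = 0.209, limma), and its 95% interval ran from −1.15 to 0.12. Leaving out 1 library at a time moved this estimate between −0.79 and −0.27.

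Reln encodes reelin, a large secreted glycoprotein that marks stellate cells and not portal fibroblasts in the liver. It had 2.29, 2.01 and 2.84 FPKM in wt and 3.88, 3.37 and 2.76 FPKM in med23 ko. Only med23 ko replicate 3 reached into the wt range, and Reln had the largest upward estimate of the 10 markers, 0.47 on the log2 scale (SE 0.20, 95% interval 0.018 to 0.93). It did not pass after adjustment (adjusted p = 0.122, limma). Rgs5, a regulator of G-protein signalling found in stellate cells and pericytes, had 6.90, 4.06 and 8.89 FPKM in wt and 7.10, 7.59 and 5.13 FPKM in med23 ko. All 3 med23 ko values lay inside the wt range, the group means were 6.62 ± 2.43 and 6.60 ± 1.30 FPKM (SD, n = 3 each), and the log2 difference was 0.048 with an interval of −0.62 to 0.71. The 3 quiescent markers therefore had estimates on both sides of 0.

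Des, the muscle-type intermediate filament that is the usual tissue marker of rodent stellate cells, was the member that fell. It had 4.53, 4.64 and 3.99 FPKM in wt and 3.22, 3.25 and 2.42 FPKM in med23 ko. Every med23 ko library was below every wt library, and the mean went from 4.39 ± 0.349 to 2.96 ± 0.468 FPKM (SD, n = 3 each). The log2 difference was −0.56 (SE 0.17, 95% interval −0.95 to −0.17, adjusted p = 0.0497, limma). The exact permutation p was 0.1, two-sided, which is the smallest that 3 against 3 libraries allow. The call was at the edge of the threshold. Its adjusted p was 0.107 without wt replicate 1, 0.0996 without wt replicate 2, 0.111 without med23 ko replicate 1, 0.0996 without med23 ko replicate 2 and 0.145 without med23 ko replicate 3, and the log2 difference stayed between −0.63 and −0.43. Desmin is also a protein of skeletal muscle, and the 8 skeletal muscle markers examined summed to 0.449 to 1.35 FPKM in wt and 0.376 to 0.896 FPKM in med23 ko, with Myh1 and Myh4 at 0 in all 6 libraries. In whole liver, fewer stellate cells and less RNA per cell cannot be told apart.

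Pdgfra and Pdgfrb encode the PDGF receptor subunits. Pdgfrb, the receptor through which PDGF drives stellate cell division, had 4.37, 3.6 and 3.51 FPKM in wt and 2.66, 3.11 and 1.91 FPKM in med23 ko. The groups did not overlap, and the estimate, −0.58 on the log2 scale (SE 0.21, 95% interval −1.06 to −0.10), was the most negative of the 10 markers. It missed the threshold after adjustment (adjusted p = 0.0808, limma), and its exact permutation p was 0.1.

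Pdgfra had the lowest level of the markers, with 1.08, 0.958 and 1.35 FPKM in wt and 1.02, 1.10 and 0.905 FPKM in med23 ko. Its groups overlapped and its log2 difference was −0.14 (95% interval −0.65 to 0.37, adjusted p = 0.677, limma). This estimate was −0.24 without wt replicate 2 and −0.014 without wt replicate 3, the ends of its range over single omissions. The 2 receptor subunits thus differed in whether their libraries separated, but the difference between their changes was not tested.

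Dcn encodes decorin, a small leucine-rich proteoglycan that binds collagen and TGF-beta. It was by far the most abundant marker, with 68.4, 64.5 and 82.4 FPKM in wt and 55.6, 66.6 and 51.4 FPKM in med23 ko. Of the med23 ko libraries, replicate 2 lay above the lowest wt library and the other two below it. The log2 difference was −0.31 (SE 0.16, 95% interval −0.67 to 0.049, adjusted p = 0.184, limma).

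Acta2, which encodes alpha-smooth muscle actin and is the standard marker of the activated cell, had 7.83, 4.58 and 5.57 FPKM in wt and 4.90, 4.73 and 3.30 FPKM in med23 ko. The groups overlapped, because wt replicate 2 lay below med23 ko replicates 1 and 2. The means were 5.99 ± 1.66 and 4.31 ± 0.877 FPKM (SD, n = 3 each), and the log2 difference was −0.45 (SE 0.24, 95% interval −0.997 to 0.091, adjusted p = 0.198, limma). Leaving out 1 library at a time moved the estimate between −0.63 and −0.25, the smallest sizes being −0.25 without wt replicate 1 and −0.28 without med23 ko replicate 3. Reads of Acta2 could be shared with the other actin genes, and how the authors assigned such reads was not tested. The muscle actins Actg2, Acta1 and Actc1 had at most 0.225, 0.0643 and 0.425 FPKM in any library, whereas the cytoplasmic actins Actb (482 to 1389 FPKM) and Actg1 (233 to 1038 FPKM) lay far above Acta2 and fell, as given below with the contractile genes. The level of Acta2 is uncertain to that extent.

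Tagln encodes transgelin, an actin-binding protein of smooth muscle and myofibroblasts. It had 24.8, 20.1 and 20.4 FPKM in wt and 19.7, 18.6 and 13.3 FPKM in med23 ko. The groups did not overlap, but med23 ko replicate 1 lay just under the lowest wt library and the estimate was −0.35 (SE 0.18, 95% interval −0.77 to 0.065, adjusted p = 0.193, limma). Without med23 ko replicate 3 it was −0.18, and over all single omissions it ran from −0.46 to −0.18.

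Lum encodes lumican, a proteoglycan related to decorin that organises collagen fibrils. Dcn and Lum are neighbours on chromosome 10 of mm10, both on the plus strand (Dcn at chr10:97479609-97518143 and Lum at chr10:97565128-97572703), with 46984 bases between them. Lum had 4.06, 1.95 and 4.03 FPKM in wt and 3.43, 4.74 and 4.22 FPKM in med23 ko. Most of the spread came from wt replicate 2, and the estimate of 0.36 on the log2 scale (SE 0.29, 95% interval −0.31 to 1.03, adjusted p = 0.398, limma) ranged from 0.018 to 0.53 when single libraries were left out. The estimates of Dcn and Lum thus had opposite signs, and both intervals included 0.

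Levels can be ranked between genes, since FPKM is scaled to transcript length. In wt the order was Dcn, Tagln, Rgs5, Acta2, Des, Pdgfrb, Lum, Reln, Lrat and Pdgfra, from a mean of 71.8 ± 9.40 FPKM for Dcn and 21.8 ± 2.67 FPKM for Tagln to 1.13 ± 0.199 FPKM for Pdgfra (SD, n = 3). Dcn and Tagln each stood apart from the next gene, as did Lrat from Pdgfra, whereas the libraries of neighbours overlapped all the way from Rgs5 to Lrat. In med23 ko the order was Dcn, Tagln, Rgs5, Acta2, Lum, Reln, Des, Pdgfrb, Lrat and Pdgfra. Des and Pdgfrb stood ahead of Lum and Reln in wt and behind them in med23 ko, although in both groups neighbours within these 4 genes overlapped.

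The markers were also read by state. The mean of Acta2, Tagln and Lum minus the mean of Lrat, Reln and Rgs5, each on the log2(FPKM + 0.1) scale, was 1.44, 1.26 and 0.819 in wt and 1.02, 1.04 and 1.01 in med23 ko. The 3 med23 ko libraries were nearly alike and lay inside the wide spread of wt, and the group means of 1.17 ± 0.320 and 1.02 ± 0.0162 (SD, n = 3 each) differed by −0.15. No direction toward the activated or the quiescent state was therefore seen beyond the spread between wt libraries, and the wt libraries set its size, the difference being −0.016 without wt replicate 1 and −0.33 without wt replicate 3. Both means were lowest in wt replicate 2 among the wt livers. The quiescent mean ran from 1.27 in wt replicate 2 to 2.15 in wt replicate 3, and the activated mean from 2.53 in wt replicate 2 to 3.23 in wt replicate 1. The shared markers had means of 2.68, 2.56 and 2.70 in wt and 2.29, 2.44 and 2.01 in med23 ko, and were the group of markers whose libraries did not overlap.

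**Figure D3:**
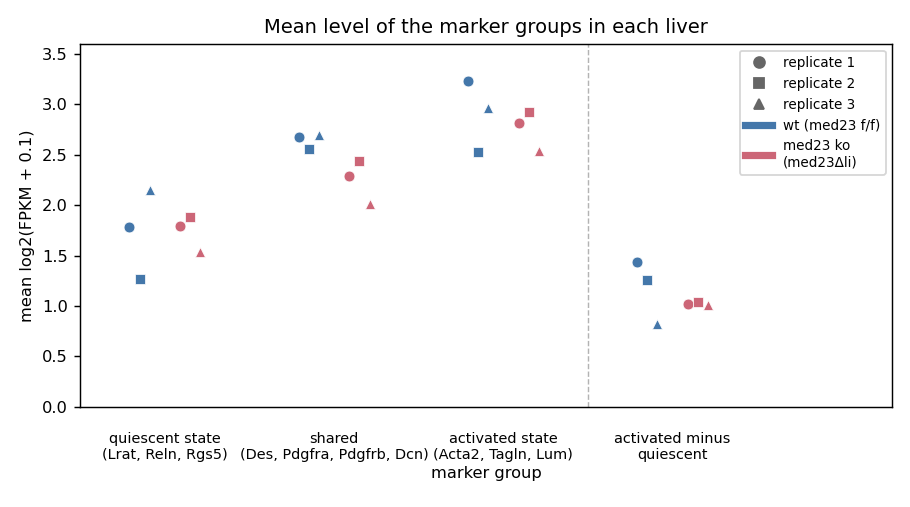
Mean log2(FPKM + 0.1) of the quiescent, shared and activated markers in each library, and the activated mean minus the quiescent mean (right, a difference on the log2 scale); blue is wt, red is med23 ko and shapes give the replicate number. The shared markers lie between 2.56 and 2.70 in wt and between 2.01 and 2.44 in med23 ko, and the activated minus quiescent differences of med23 ko (1.01 to 1.04) lie inside those of wt (0.819 to 1.44).

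Some libraries lay at the same end for many markers. Among the med23 ko libraries, replicate 3 was the lowest in 8 of the 10 markers and replicate 2 the highest in 7, and among the wt libraries replicate 2 was the lowest in 8. The share of all genes tested with these orders was not counted, so whether they are particular to the markers was not tested. Sums of hepatocyte markers (19610 FPKM) and contractile genes (529 FPKM) were also lowest in med23 ko replicate 3. The sum of other activated stellate genes was the highest of the med23 ko libraries there (158.4 FPKM). Adipoq and Plin1, 2 defining adipocyte genes, were listed almost only in med23 ko replicate 2, which had 5.65 FPKM of Adipoq and 2.76 FPKM of Plin1, while Plin1 was at 0 in the other 5 libraries and Adipoq reached at most 0.0907 FPKM there. Of 9 adipocyte genes 4 were tested, and Cidec, a lipid droplet gene that fatty hepatocytes also make, fell (−3.24, adjusted p = 0.0161, limma), without following the other adipocyte genes. Fat tissue contains cells with decorin, lumican and collagen, and the part of such tissue in the values of that library was not tested. Without med23 ko replicate 2, the log2 difference was −0.42 for Dcn, 0.25 for Lum, −0.53 for Acta2, −0.73 for Pdgfrb and 0.46 for Reln, and adjusted p was 0.176, 0.656, 0.256, 0.0875 and 0.264 respectively (limma). Without med23 ko replicate 3, the lowest library, the estimates of most markers moved toward 0 instead, to −0.23 for Dcn, −0.28 for Acta2, −0.39 for Pdgfrb, −0.18 for Tagln and −0.43 for Des, while Reln was at 0.60. None of these passed (adjusted p from 0.119 for Reln to 0.486 for Tagln, limma).

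A list of other genes of the quiescent stellate cell set the 10 markers in context. Of its 14 genes, 13 were tested (Gfap was under 0.5 FPKM), 6 fell and none rose, beside the 9.48% of all genes that fell. Their median log2 difference was −0.50, and 12 of the 13 lay below 0. The list was chosen with earlier results of these data known, so its counts beside the share of all genes are only a description. Pth1r, the parathyroid hormone receptor, had 3.95, 4.92 and 3.71 FPKM in wt and 2.10, 1.69 and 2.35 FPKM in med23 ko, a log2 difference of −1.0 (adjusted p = 0.0117, limma). Its call held without any single library. Colec11, a secreted collectin, had 11.4, 11.0 and 9.97 FPKM in wt and 6.36, 6.02 and 6.82 FPKM in med23 ko (−0.74, adjusted p = 0.00916).

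Tcf21, a transcription factor of mesenchymal cells, had 2.87, 2.91 and 3.37 FPKM in wt and 1.82, 2.21 and 1.56 FPKM in med23 ko (−0.69, adjusted p = 0.0338, limma). In Pth1r, Colec11 and Tcf21 the groups did not overlap. Among the others that fell, and named here after their values were seen, were Cygb, the stellate globin cytoglobin (−0.67, adjusted p = 0.0149), and Ecm1, a secreted matrix protein that hepatocytes also make (−0.68, adjusted p = 0.0330).

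The number of quiescent genes that fell depended on the libraries used. It was 4 without wt replicate 1, 4 without wt replicate 2, 5 without wt replicate 3, 1 without med23 ko replicate 1 (Pth1r), 3 without med23 ko replicate 2 and 2 without med23 ko replicate 3. The share of all genes that fell moved as well, being 2.92%, 3.70% and 3.45% without med23 ko replicates 1, 2 and 3. Without wt replicates 1, 2 and 3 it was 6.8%, 6.27% and 11.9%, the last above the 9.48% with all libraries. Under single omissions the adjusted p reached 0.115 for Tcf21 (which lost its call in all 6), 0.0763 for Cygb, 0.103 for Ecm1 and 0.05 for Colec11, the last without med23 ko replicate 1 (limma). The cellular source of these transcripts in whole liver was not measured.

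Other genes of the activated cell gave no call. Of 18 listed genes, 15 were tested, and Lox, Fbn1 and Cthrc1 were under 0.5 FPKM. None fell and none rose with limma, the smallest adjusted p was 0.0764, 2 had an unadjusted p under 0.05, and the median log2 difference was −0.18 with 13 of 15 below 0. Examples were chosen after their values were seen. Col1a1, the main collagen of scar tissue, had 5.02, 2.88 and 3.01 FPKM in wt and 2.33, 4.36 and 2.48 FPKM in med23 ko (−0.25, adjusted p = 0.562). Col3a1 had 7.09, 6.01 and 7.68 FPKM in wt and 5.04, 8.29 and 5.64 FPKM in med23 ko (−0.15, adjusted p = 0.612). Timp1, an inhibitor of matrix metalloproteinases, had 11.2, 13.8 and 9.21 FPKM in wt and 7.0, 19.8 and 7.82 FPKM in med23 ko (−0.13, adjusted p = 0.829).

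In these 3 genes med23 ko replicate 2, the library with adipocyte transcripts, was the highest of its group. Of the other tested genes of this list, Col6a3 and Spp1 were instead highest in med23 ko replicate 3. Vim and Tnc were highest in med23 ko replicate 1, and the rest in replicate 2. Spp1 had 46.9 FPKM in med23 ko replicate 2 and 83.6 FPKM in replicate 3. Without med23 ko replicate 2 the estimates were −0.53 for Col1a1, −0.36 for Col3a1 and −0.60 for Timp1, with adjusted p of 0.249, 0.240 and 0.119 (limma). Other omissions moved them the other way, to −0.0038 without wt replicate 1 and −0.092 without med23 ko replicate 1 for Col1a1, and to −0.011 for Col3a1 and 0.15 for Timp1 without med23 ko replicate 1. The part of fat tissue in these levels was not tested.

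**Figure D4:**
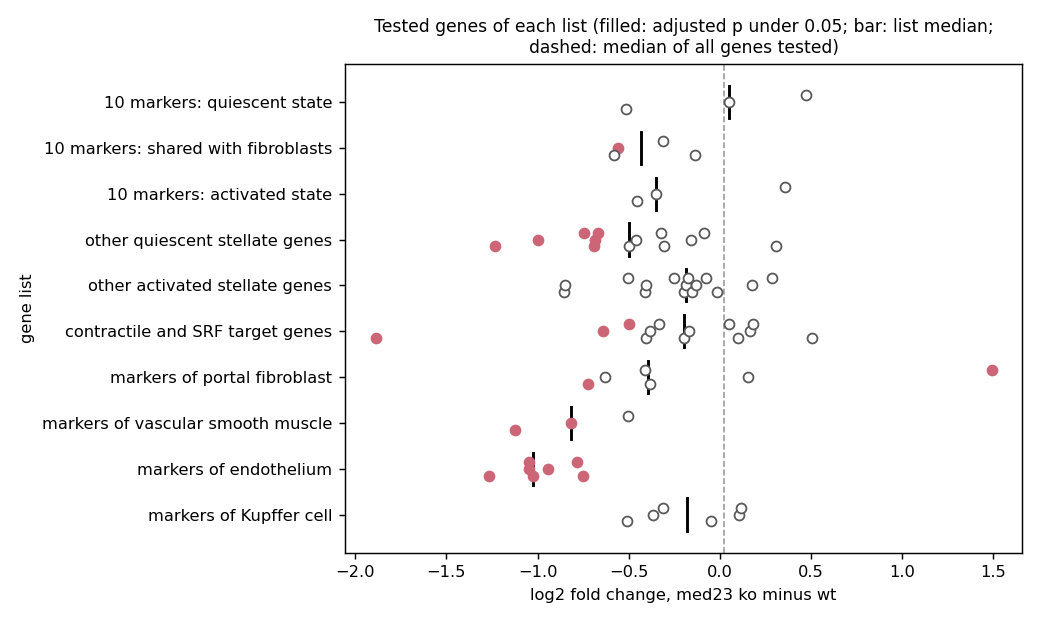
Log2 differences, med23 ko minus wt, of the tested genes in 10 lists, each point being 1 gene, filled where adjusted p was under 0.05; black bars are list medians and the dashed line is the median of all genes tested, 0.024. Filled points are 1 of 10 for the stellate markers, 6 of 13 for other quiescent genes, 0 of 15 for other activated genes and 7 of 7 for endothelium.

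Contractile genes, many of them targets of serum response factor (SRF), bear on Acta2 and Tagln. Of 15 listed, 13 were tested, 3 fell and none rose, with a median log2 difference of −0.20. Without wt replicate 1, 1 rose (Cald1, caldesmon, named after its values were seen), and without any 1 of the med23 ko libraries 1 fell in place of 3. The ones that fell were Actg1, the cytoplasmic gamma-actin, Cnn2, a calponin, and Vcl, the focal adhesion protein vinculin. Actg1 had 879, 1038 and 919 FPKM in wt and 265, 267 and 233 FPKM in med23 ko, a log2 difference of −1.89 (adjusted p = 0.000652, limma). Cnn2 differed by −0.64 (adjusted p = 0.0191) and Vcl by −0.50 (adjusted p = 0.0351). Cnn2 lost its call without any 1 of the med23 ko libraries (adjusted p up to 0.0691), and Vcl lost it under each of the 6 single omissions (adjusted p from 0.0513 to 0.136).

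Actb, the cytoplasmic beta-actin, fell as well, from 1269, 1389 and 937 FPKM in wt to 625, 574 and 482 FPKM in med23 ko (−1.08, adjusted p = 0.00963, limma). Each of these 2 cytoplasmic actins, which every liver cell makes, thus fell beyond 2-fold, while Acta2, at far lower levels, did not pass the test. Of the proteoglycans related to Dcn and Lum, 3 of 8 were tested and none passed, namely Bgn (−0.24), Omd (−0.13) and Prelp (0.19).

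Signals that stellate cells receive were examined next. Of the PDGF ligands, 3 of 4 were tested and Pdgfc rose, from 1.09, 1.15 and 0.867 FPKM in wt to 5.23, 4.15 and 5.64 FPKM in med23 ko, a log2 difference of 2.16 (SE 0.19, adjusted p = 0.00130, limma). PDGF-CC, its product, binds mainly the Pdgfra receptor. Pdgfa (−0.27) and Pdgfb (−0.46) did not pass. A ligand therefore rose while neither receptor gene did.

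Among 10 TGF-beta and endothelin genes, of which 9 were tested, Tgfb2 rose and none fell. Without wt replicate 2 the number that rose was 2, the other being Tgfbr2, a receptor gene named after its values were seen. Tgfb2 had 0.773, 0.335 and 1.02 FPKM in wt and 2.43, 1.95 and 2.16 FPKM in med23 ko (1.6, adjusted p = 0.0187, limma). Its log2 difference was 1.2 without wt replicate 2, and its adjusted p was 0.0740, 0.0556 and 0.0664 without med23 ko replicates 1, 2 and 3 in turn. Tgfb1, the isoform most often tied to stellate cell activation, differed by −0.30 (adjusted p = 0.146).

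For Reln, the receptor gene Vldlr rose from 0.625, 0.255 and 1.76 FPKM in wt to 5.67, 3.44 and 4.62 FPKM in med23 ko (2.55, adjusted p = 0.0170, limma). The log2 difference was 1.98 without wt replicate 2 and 3.18 without wt replicate 3, and the adjusted p was 0.0647 without med23 ko replicate 1 and 0.0628 without med23 ko replicate 3. The other receptor gene, Lrp8, and the adaptor gene Dab1 were under 0.5 FPKM. Vldlr is also a lipoprotein receptor of other cells.

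Genes of retinoid handling bear on Lrat. Of 10 listed, 8 were tested, 2 fell and 1 rose. The lipid droplet protein gene Plin2 fell (−1.38, adjusted p = 0.00579, limma), from 2156, 2540 and 1903 FPKM to 914, 992 and 648 FPKM. Rbp4, the hepatocyte's carrier of retinol in plasma, rose (0.84, adjusted p = 0.0171), from 1954, 2495 and 1836 FPKM to 4103, 3867 and 3265 FPKM. Its adjusted p was 0.0546 without wt replicate 1, 0.0683 without med23 ko replicate 1 and 0.0667 without med23 ko replicate 2. Hepatocytes make Plin2 and Rbp4, and the lowest library of either lay far above the highest of Lrat (3.20 FPKM).

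Other cell types that share the 10 markers, or lie beside the stellate cell, were read from lists of their own markers. Of the 10 portal fibroblast genes, 6 were tested, Dpt fell (−0.72, adjusted p = 0.0440, limma) and Entpd2 rose (1.49, adjusted p = 0.00131), with a median log2 difference of −0.40 and 4 of the 6 below 0. The summed level was 9.57 to 10.8 FPKM in wt and 12.4 to 14.9 FPKM in med23 ko, but without Entpd2 the other 9 genes summed to 6.59 to 7.69 FPKM in wt and 4.57 to 5.49 FPKM in med23 ko, the opposite direction. Gli1 had at most 0.0870 FPKM. Leaving out any library but wt replicate 2 took Dpt over the threshold, with adjusted p up to 0.156.

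Vascular smooth muscle also makes Acta2, Tagln and Des. Of its 8 listed markers, 3 were tested, and Smtn (−0.82, adjusted p = 0.0104, limma) and Rgs4 (−1.12, adjusted p = 0.0239) fell. Their call was lost under some omissions, with adjusted p up to 0.0554 for Smtn (without med23 ko replicate 1) and up to 0.0847 for Rgs4. Rgs4 averaged 0.831 FPKM in wt and 0.329 FPKM in med23 ko. It thus passed the filter of 0.5 FPKM only through its wt level, and its fall is that of a gene near the floor. The sum of the 8 listed markers was 7.55 to 9.54 FPKM in wt and 4.47 to 4.87 FPKM in med23 ko. Most of it was Smtn, with 4.51 to 5.30 FPKM in wt and 2.60 to 3.03 FPKM in med23 ko. Ramp1 came next, with 1.19 to 2.51 FPKM in wt and 1.02 to 1.11 FPKM in med23 ko. Myh11, the defining myosin of that cell type, had at most 0.264 FPKM. The part of smooth muscle in the levels of Acta2, Tagln and Des was not tested.

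Endothelial and Kupffer cells line the sinusoid beside the stellate cell. All 7 endothelial markers fell, or 5 to 7 of them when single libraries were left out, with a summed level of 89.5 to 128.3 FPKM in wt and 48.5 to 52.0 FPKM in med23 ko. Clec4g, a lectin of sinusoidal endothelium, showed the largest difference of these (−1.27), and Kdr, the receptor for vascular endothelial growth factor, differed by −1.03 (adjusted p = 0.00426, limma). None of the 6 Kupffer cell markers passed the adjusted threshold (1 fell without wt replicate 1), 2 had an unadjusted p under 0.05, and their sums were 117.5 to 186.2 FPKM in wt and 124.2 to 134.2 FPKM in med23 ko. Cholangiocyte (4 tested) and mesothelial (4 tested) markers gave no call with limma, and none of them had an unadjusted p under 0.05. The 7 hepatocyte markers lay on both sides of 0, 4 below and 3 above. Serpina1a fell (−0.70, adjusted p = 0.0305, and up to 0.111 under single omissions), and the other 6, given after their values were seen, did not pass. These were Cps1 (−0.63), Apoa1 (−0.57) and Alb (−0.36) below 0, and Tat (0.85), Ttr (0.38) and Ass1 (0.20) above 0. Without wt replicate 3, 2 of the 7 fell and 1 rose. The sums, made up mostly of Alb and Apoa1, were 23590 to 33100 FPKM in wt and 19610 to 26210 FPKM in med23 ko.

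Med23 itself did not separate the groups at the level of the whole gene (3.51 ± 0.589 FPKM in wt and 3.24 ± 0.286 FPKM in med23 ko, SD, n = 3 each, adjusted p = 0.685, limma). A whole-gene FPKM also counts exons outside a floxed stretch and Med23 of cells without the Cre. The groups above therefore rest on the labels alone.

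Across all tested genes outside the markers, the profiles over the 6 libraries most like that of Acta2 were those of Lgals1, Lima1 and Cd9, at Euclidean distances of 0.165, 0.254 and 0.270 between centred log2(FPKM + 0.1) values. Those most like Lrat were Lrrc28, Slc16a7 and Ptprcap, at 0.203, 0.252 and 0.254. With 6 libraries, such closeness is only a description of these values. None of the 6 genes passed the adjusted threshold (adjusted p from 0.0696 for Cd9 to 0.292 for Slc16a7, limma), and Lima1, which encodes an actin-binding protein, went from 15.7 ± 2.82 to 10.9 ± 2.21 FPKM (SD, n = 3 each).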

How the data were processed

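Total RNA from whole liver was made into TruSeq v2 libraries and sequenced in paired ends on an Illumina instrument. The authors ran FastQC, TopHat and Cuffdiff on mm10 and deposited 1 table of FPKM values per gene and library; tool versions, gene annotation and the treatment of reads with several matches are not given in the sources used here. The table also holds the authors' fold changes, p-values and q-values, which were not used. FPKM values carry no read counts, and whole reads could not be recovered from the smallest values (the fullest bin of their ratios between libraries held 1.27% of 1099 genes), so the depth of each single library is not known from them and no counting interval is given. Between 7628 and 9341 genes were at 0 in a library.

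Values were taken as log2(FPKM + 0.1), so fold changes of low genes are understated. The filter kept 11956 genes, those averaging 0.5 FPKM or more over the 6 libraries, which were tested with limma 3.58.1 (eBayes with trend, R 4.3.3), med23 ko minus wt, no covariate, with Benjamini-Hochberg adjustment over all of them. A gene rose or fell at adjusted p under 0.05. On simulated data with 200 changed genes the script was tested first. The exact permutation test was two-sided. Lists are given by counts and medians, with no set test. The markers and lists were chosen with earlier results of these data known. Named genes are the 10 markers, the genes of each list that passed (at most 4, largest first), defining markers at 0, the 3 nearest profiles of Acta2 and Lrat, and Med23; 1 listed gene is counted with its lists but not reported here, and others are said to be chosen after their values were seen. Equal replicate numbers did not pair libraries across groups (correlations of −0.022, −0.046 and −0.12). No 2 libraries were identical. The alternatives were 15, with other pseudocounts, filters, scalings and eBayes settings, a replicate block, and each library left out.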

Additional observations from a re-analysis of the deposited data

How the results depend on the processing

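The number of the 10 markers that fell was 1 (Des) and became 0 with no filter on low values, with eBayes without trend, with robust eBayes and with the replicate block, and 0 to 1 when libraries were left out in turn. The number that rose was 0 throughout the 15 alternatives. Of 150 results for single markers under an alternative, 137 kept their direction and side of the threshold, 9 lost the call (all Des, adjusted p between 0.0384 and 0.145 over its alternatives) and 4 changed sign. Those were Rgs5, at −0.00074 with quantile normalization, −0.26 without wt replicate 2, −0.013 without med23 ko replicate 1 and −0.061 without med23 ko replicate 2 (0.048 with all libraries, −0.26 to 0.29 over single omissions). Outside the markers, Timp1 became 0.019 without wt replicate 2, 0.15 without med23 ko replicate 1 and 0.068 without med23 ko replicate 3 (−0.60 to 0.15 over single omissions), and Med23 became 0.017 without wt replicate 3 (−0.22 to 0.017). The causes were not tested. Of the other quiescent genes, 6 fell, 3 with the replicate block (Colec11 and Pth1r among them), 4 with no filter, and 1 to 5 without single libraries, which leaves fewer samples. Replicate numbers are shared between groups but did not pair the libraries, so the block is given only here; under it 5.14% of all genes fell. The activated minus quiescent difference stayed between −0.33 and −0.016 without single libraries and between −0.165 and −0.147 otherwise. Scaling moved the median of all genes to −0.0050 (centred) or −0.017 (quantile). Rgs4, under 1 FPKM, has no value with the stricter filter. The values do not show the depth of each library, and with 3 libraries a group the 95% intervals of 3 markers reached beyond 2-fold.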
